A study of Caenorhabditis elegans with 2 samples.

Results

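Coding exon regions were the autosomal regions listed for tagged JUN-1 whose summit lay inside protein-coding sequence and outside promoter windows. The list holds peaks together with background, and 15 of these regions passed the authors' reproducibility threshold. A listed region is thus not by itself a bound site. A region of the joint peak list, called from both replicates together, was taken when its summit fell in the coding sequence (CDS) of a protein-coding gene on chromosomes I to V. The summit also had to lie outside every promoter window, which reached 1000 bp upstream and 200 bp downstream from each protein-coding transcript start, and more than 250 bp from any tRNA, snRNA, snoRNA or miRNA gene. By this rule 1661 regions were found among 13085 in the joint list, which is 12.7% (95% exact binomial interval 12.1 to 13.3), and among the 10379 autosomal regions they made up 16.0% (15.3 to 16.7). The rule used position only, so strength and reproducibility were not set by it. Sequence was set by it in part, since every summit had to lie in CDS.

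JUN-1 is the nematode relative of JUN, a basic leucine zipper (bZIP) subunit of the AP-1 transcription factor, which in other animals pairs with FOS proteins on a short palindromic DNA site and is activated by Jun N-terminal kinase (JNK) signalling. Chromatin immunoprecipitation followed by sequencing (ChIP-seq) recovers DNA crosslinked to a tagged protein, directly or through other proteins, and most sites of such factors are described at promoters and enhancers. Coding exons are spliced, translated and conserved for the protein they encode, and they are also the bodies of transcribed genes, so that signal there is read beside that of other parts of the gene.

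The material was whole larvae of Caenorhabditis elegans at the L4 stage, the last before adulthood, with both sexes pooled. Every worm was of strain OP234, which carries the unc-119 allele ed3 on chromosome III and the insertion wgIs234 that supplies jun-1 tagged with eGFP, with no promoter or copy number of the transgene stated in the labels. There was 1 group of 2 biological replicates, of size-selected fragments of 150 to 350 bp, and no untagged or untreated worms were analysed here. With whole animals, a site bound in few cells and a site bound weakly in many cannot be told apart.

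The replicate lists held 19396 regions for replicate 1 and 23742 for replicate 2, and the joint list of 13085 was deposited as peaks together with background. The authors' thresholded list, cut on the irreproducible discovery rate, held 899 regions, which were the 899 strongest of the joint list, so passing it here meant a joint signal of at least 49.6. Signal is the authors' value per region, in units that neither labels nor headers state, so levels were compared within a list, and replicate lists by rank correlation only. The values given for replicates 1 and 2 side by side show in which lists a site was found, and their levels are not compared. Read depth was unknown, and no test was run over regions, since the regions of 1 list are not replicates.

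The sequences at the 6 strongest coding exon regions are shown because these sites are described one by one below. Each is the stretch within 50 bp of the summit that lies in the CDS, read from the WBcel235 (ce11) genome on the strand of the gene, 5′ to 3′. Capitals mark matches, on either strand, to any of 10 short words searched, namely the AP-1 site TGACTCA, the cyclic AMP response element TGACGTCA, the E-box CACGTG, the GA repeat word GAGAGA, the CCAAT box, the GATA word GATAAG, the CAG repeat word CAGCAG, the GAA repeat word GAAGAA, the GC box GGGCGG and the A tract, a run of 7 A.
dos-3, chrIII:835947-836047, minus strand: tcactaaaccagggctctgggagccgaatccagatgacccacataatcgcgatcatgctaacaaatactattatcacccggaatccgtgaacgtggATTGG
kcnl-4, chrV:14542332-14542397, plus strand: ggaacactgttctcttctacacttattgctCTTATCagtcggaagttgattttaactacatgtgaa
rpt-2, chrV:6016276-6016376, minus strand: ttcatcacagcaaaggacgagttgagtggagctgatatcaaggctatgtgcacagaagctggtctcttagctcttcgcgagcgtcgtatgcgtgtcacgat
best-18, chrIII:10214563-10214657, plus strand: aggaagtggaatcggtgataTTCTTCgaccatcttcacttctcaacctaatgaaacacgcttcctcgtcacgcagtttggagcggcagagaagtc
arrd-6, chrII:11150052-11150124, plus strand: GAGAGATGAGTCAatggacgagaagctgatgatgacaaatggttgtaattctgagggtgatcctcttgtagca
icl-1, chrV:726444-726544, minus strand: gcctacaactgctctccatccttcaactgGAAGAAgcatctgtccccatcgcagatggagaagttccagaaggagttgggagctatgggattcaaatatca

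Of these 6, the arrd-6 window alone holds the AP-1 site, which reads TGAGTCA on the gene's strand and directly follows a GAGAGA word. The dos-3 window holds a CCAAT word on the other strand at its end, and the rpt-2 window holds none of the 10 words.

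Few coding exon regions were strong. Past the reproducibility threshold were 15 of the 1661 (0.903%, exact binomial interval at 95% from 0.506 to 1.49), against 6.87% of the whole joint list. The share was 9.91% of the 3996 autosomal regions in promoter windows, 6.196% of 1727 intergenic, 4.75% of 632 in untranslated or other exons and 3.35% of intronic regions. Coding exon regions on chromosome X, chosen by the same rule, passed in 2 of 407 cases (0.491%). At a deposited q-value under 0.05, 59 coding exon regions were called (3.55%, interval 2.71 to 4.56), against 14.8% of the joint list.

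The share was as low without the filters of the rule. Before the promoter and small RNA filters, 2261 autosomal summits lay in CDS, and 23 of them passed the threshold (1.02%). Among the 577 that also lay in a promoter window, 6 passed (1.04%).

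The median signal of coding exon regions was 20.4 (interquartile range 18.3 to 24.0), against 21.8 in the joint list (18.8 to 28.3), 23.1 in promoter windows, 22.1 in intergenic sequence and 20.7 in introns. Their median rank in the joint list was 7902. The eligible coding sequence spanned 16.0 Mb, which is 19.3% of the autosomes, and held 104.1 regions per Mb. That compares with 180.2 per Mb in promoter windows, 144 in untranslated or other exons, 99.3 in intergenic sequence and 90.5 in introns. Of regions past the threshold, coding exons held 0.940 per Mb, against 17.9 in promoter windows, 6.16 in intergenic sequence and 3.03 in introns. Coding exons were thus about as dense in listed regions as introns and intergenic sequence, and sparser in strong ones.

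The share of coding exon regions was higher at each step down the ranks until the last bin. Among the 500 strongest autosomal regions of the joint list, 7 were coding exon regions (1.4%), and among the next 500 there were 18 (3.6%). The share was 9.6% of the next 1000, 14.6%, 18.05% and 20.75% of the next 3 bins of 2000, and 19.8% of the rest. In both replicate lists the share was lower among the strongest regions than among the rest. In replicate 1, coding exon regions were 28 of the 1000 strongest autosomal regions (2.8%) and 15.3% of later ranks, and in replicate 2 they were 46 of 1000 (4.6%) and 23.1%.

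**Figure D1:**
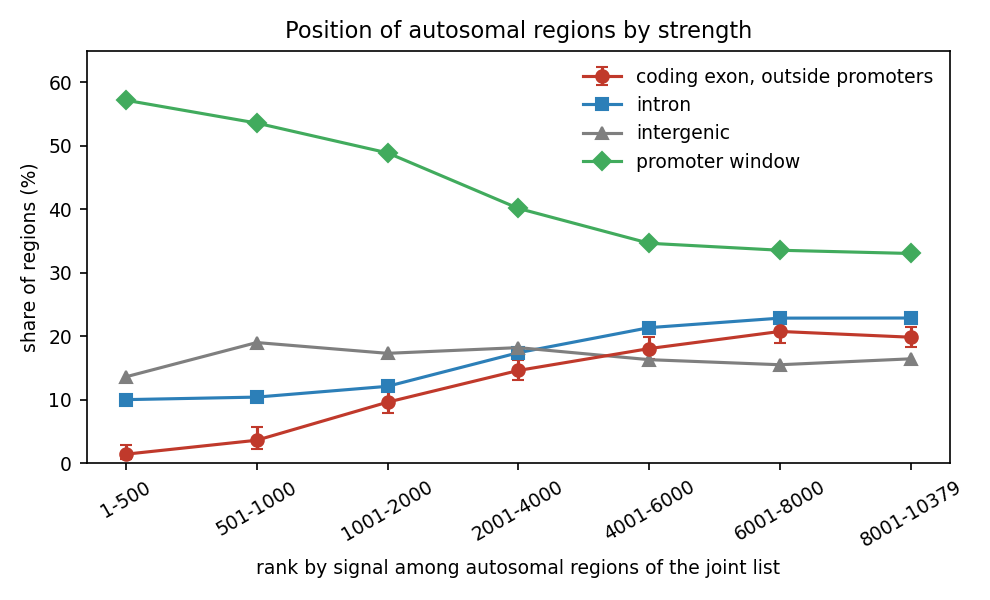
Share of autosomal regions of the joint list (y axis, percent) in coding exons, promoter windows, introns and intergenic sequence, by bin of rank by signal (x axis, strongest at the left). Bars on the coding exon line are 95% exact binomial intervals. Coding exon regions run between 1.4% in the strongest bin and 20.75% in the bin that ends at rank 8000, while promoter windows run between 57.2% and 33.04%.

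A summit within 100 bp in both replicate lists was found for 509 coding exon regions (30.6%, interval 28.4 to 32.9), against 40.3% of the joint list. The share was 46.1% in promoter windows, 40.5% in intergenic sequence, 32.6% in introns and 28.5% in coding exons of X. A summit in replicate 1 was found for 883 coding exon regions and in replicate 2 for 1161. That leaves 374 seen in replicate 1 only, 652 in replicate 2 only and 126 in neither list by this distance. The share in both replicates was 60.3% in the strongest 25% of coding exon regions by joint signal, 33.01% and 18.8% in the groups of equal size below it and 10.4% in the weakest.

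Among the 509 regions found in both replicates, Spearman's rank correlation of the replicate signals was 0.205. It was 0.598 over 1844 promoter regions, 0.467 over 652 intronic regions and 0.538 over 5276 regions of the joint list. These are descriptions over regions that share a pair of libraries.

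**Figure D2:**
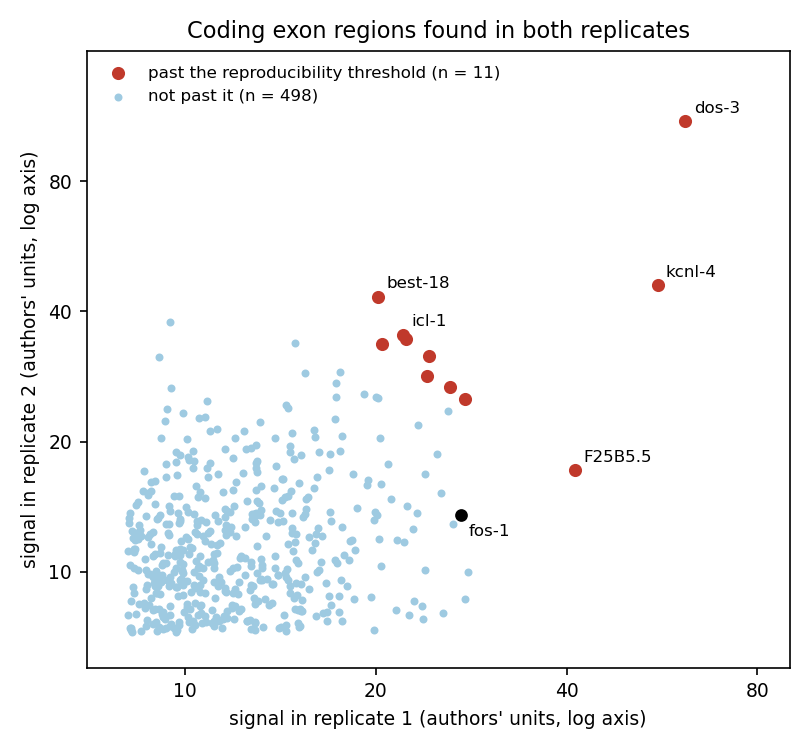
Signal in replicate 1 (x axis) and replicate 2 (y axis), in the authors' units on log axes, for the 509 coding exon regions with a summit in both replicate lists. Red points are the 11 past the reproducibility threshold, blue points the other 498, and the black point is the stronger fos-1 region. dos-3 and kcnl-4 stand above 40 in both replicates, and most blue points lie between 7 and 20.

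The strongest coding exon region lay in the last coding exon of dos-3, which encodes a protein of the DOS-motif family of Notch co-ligands. Its joint signal was 169.6, with 61.6 in replicate 1 and 110.2 in replicate 2, and it ranked 50 in the joint list. A second dos-3 region, with its summit at III 836197, overlapped the first. It had a joint signal of 48.6, with 9.46 in replicate 1 and 37.7 in replicate 2. Another dos-3 region had 27.4 in the joint list, 11.95 in replicate 1 and 14.2 in replicate 2. Both replicate lists held all 3 regions.

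dos-3 (III 835751 to 839591, minus strand) ends beside zip-2 (III 832982 to 835814, plus strand), which encodes a bZIP factor of the response to infection. The promoter window of zip-2 held a summit at III 833891 past the threshold, with a joint signal of 109.9, 55.6 in replicate 1 and 52.1 in replicate 2. A coding exon region in zip-2 itself, at III 834654, had 27.7 in the joint list, 9.31 in replicate 1 and no summit within 100 bp in replicate 2. The dos-3 summit was 1692 bp from the zip-2 start, its nearest start. Within this pair of genes, the dos-3 exon thus carried a stronger signal than the zip-2 promoter.

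kcnl-4, which encodes a channel of the calcium-activated potassium channel family, had the next strongest region, at V 14542347 in coding exon 7 of 9. Its joint signal was 97.5, with 55.7 in replicate 1 and 45.95 in replicate 2. best-18, of the bestrophin family of anion channels, had 67.2 at III 10214607 in its last coding exon, with 20.2 in replicate 1 and 43.2 in replicate 2. icl-1, the bifunctional enzyme of the glyoxylate cycle, had 60.4 at V 726494 in coding exon 3 of 5, with 22.1 in replicate 1 and 35.3 in replicate 2.

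For 4 of the 15, a replicate list held no summit within 100 bp. rpt-2, an ATPase subunit of the regulatory particle of the proteasome, had 74.5 in the joint list and 36.1 in replicate 2. arrd-6, an arrestin-domain gene, had 64.3 in the joint list and 45.8 in replicate 2, and neither had a summit in replicate 1. In ttr-1, of the transthyretin-related family, the joint signal was 57.4 with 37.7 in replicate 1, and in K08E3.2 it was 53.5 with 28.8 in replicate 1, and neither had a summit in replicate 2.

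The other 7 were seen in both replicates with joint signals between 51.4 and 57.6. R119.3 on chromosome I had 22.3 in replicate 1 and 34.6 in replicate 2, and held TGACGTCA. Y56A3A.22 had 24.3 and 31.5 in replicates 1 and 2, C36E8.4 had 24.1 and 28.4, and F54F2.7 had 20.4 and 33.6. lelo-2 had 26.2 and 26.7, F25B5.5 had 41.2 and 17.2, and C29A12.6 on V had 27.7 and 25.1. The nearest coding exon regions below the threshold were in T28H10.1 (49.1) and the second dos-3 region, so the values ran on across it with no gap.

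Of the 15 regions past the threshold, 9 were on chromosome III, 4 on V, 1 each on I and II, and none on IV. Chromosome III also held 29 of the 100 strongest coding exon regions and the densest set of them, with 130.2 per Mb of eligible coding sequence against 104.1 over all autosomes. The joint list as a whole was denser there too, with 151 regions per Mb against 126, and 7.59% of its regions on III passed the threshold. Coding exon regions on III passed in 2.51% of 358 cases, and on I, II and V in 0.341%, 0.313% and 1.03%. In the central 50% of their chromosomes lay 1126 coding exon regions (67.8%), against 58.8% of the eligible coding bases.

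Coding exon regions gathered towards the 3′ end of the coding sequence. Place was measured in the transcript of longest CDS, which held 1643 of the 1661 summits. The last coding exon held 367 of these (22.3%, interval 20.3 to 24.4), against 14.6% of eligible bases, and internal exons held 1198 (72.9%), against 81.7%. With the CDS cut into 3 equal parts, the last part held 736 (44.8%, interval 42.4 to 47.2), against 34.9% of eligible bases, the middle part 31.3% against 38.5%, and the first part 23.9% against 26.6%. First exons held 70 summits at 142 per Mb, and only their part beyond the promoter window was eligible.

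Counted by genomic distance to the end of the CDS, there were 175 summits within 100 bp (162 per Mb) and 142 in the next 100 bp (179 per Mb). The density was 118 per Mb from there to 500 bp, 100.5 from 500 to 1000 bp and 88.2 beyond that. The replicate lists, put through the same rule, had 41.9% of 2253 summits in the last part for replicate 1 and 39.8% of 4170 for replicate 2, and 20.4% and 18.9% in the last coding exon.

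**Figure D3:**
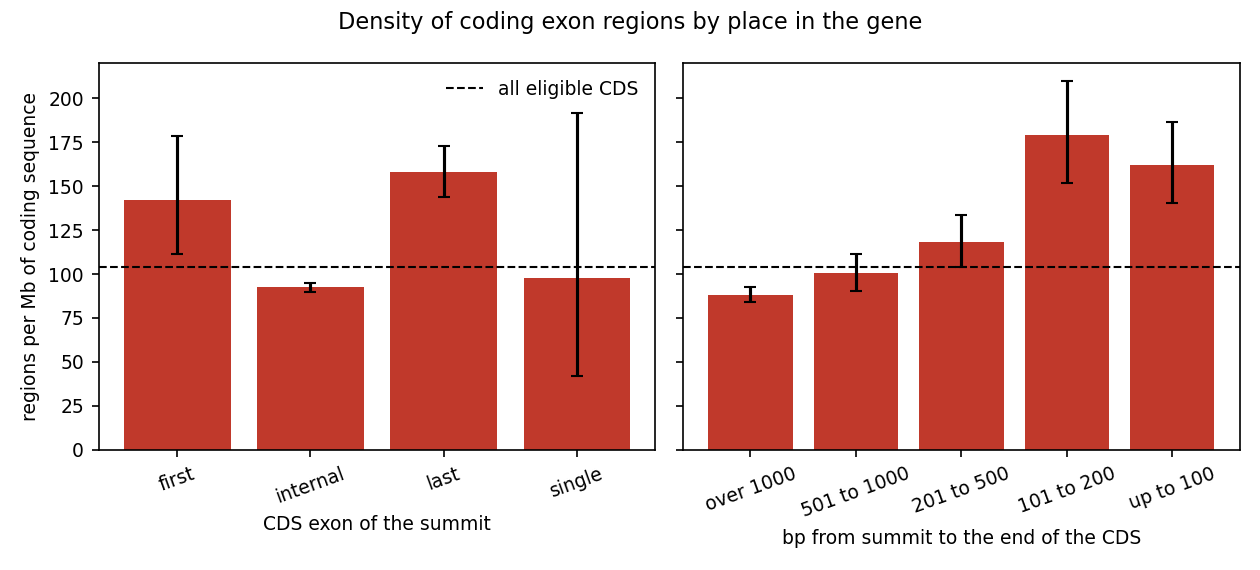
Coding exon regions per Mb of eligible coding sequence (y axis), by coding exon of the summit (left) and by genomic distance in bp to the end of the CDS (right). Error bars are 95% exact binomial intervals of the count, and the dashed line is the density over all eligible CDS, 104.1 per Mb. The last exon stands at 158 per Mb and internal exons at 92.3, and the bins within 200 bp of the end are the highest on the right.

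Strong coding exon regions lay near the 3′ end in larger shares than weak ones. Of the 15 past the threshold, 9 lay in the last coding exon, and 9 lay within 200 bp of the end of the CDS. Among the 100 strongest, 95 could be placed and 51 of them were in the last coding exon (53.7%). In 4 equal groups by joint signal the share was 34.2% in the strongest, then 17.9%, 20.5% and 16.9%. All 9 last-exon regions past the threshold except arrd-6, on II, and rpt-2, on V, were on chromosome III, and they were in dos-3, best-18, C36E8.4, F54F2.7, K08E3.2, lelo-2 and F25B5.5. The regions reach past the coding sequence at such a place, and the median share of the region that was CDS was 63.3% for the 15 past the threshold, against 74.7% for all. Some of the 15 also lay near a start of their own gene, at 236 bp for R119.3, 310 bp for ttr-1, 345 bp for lelo-2, 387 bp for Y56A3A.22 and 640 bp for best-18. The rest lay between 913 and 3088 bp from the nearest start. With regions of 376 bp, those nearest a start reach into its promoter window.

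**Figure D4:**
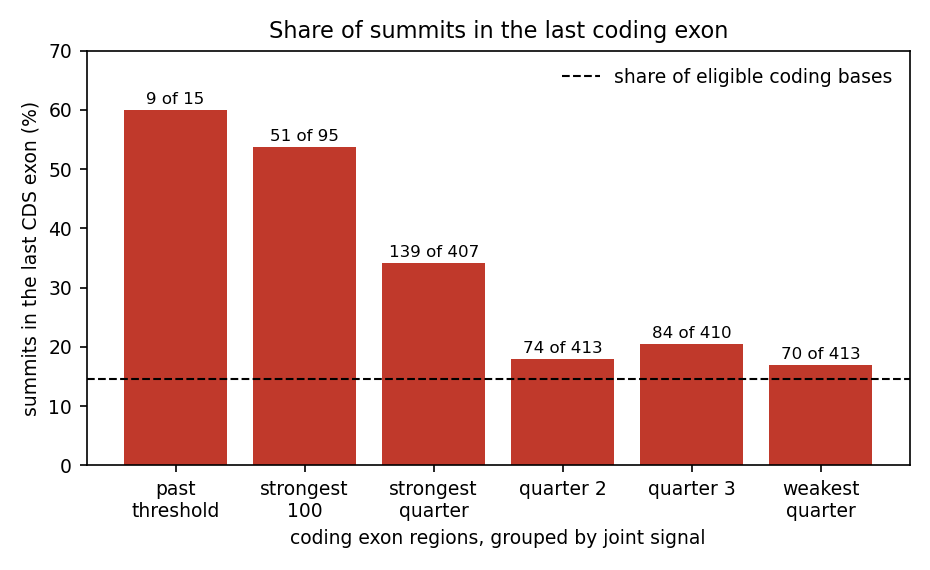
Share of summits in the last coding exon (y axis, percent), for coding exon regions grouped by joint signal (x axis). The first and second bars are subsets of the strongest 25%, the labels give counts, and the dashed line is the share of eligible coding bases, 14.6%. The bars past the threshold, of the strongest 100 and of the strongest 25% are the highest, at 9 of 15, 53.7% and 34.2%.

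The median distance of coding exon summits to the nearest protein-coding start was 1360 bp, and 1460 of the 1661 lay downstream of it. The promoter window reaches farther upstream than downstream, so the side is in part set by the rule. Density was 122 per Mb at 200 to 500 bp from a start. It was 98.9, 106.8 and 101.5 in the bins that end at 1000, 2000 and 5000 bp, and 78.4 beyond 5000 bp. Host exons were of usual length, with a median of 282 bp against 291 bp over eligible bases. An antisense protein-coding gene overlapped 47 summits, and a gene of another type 8. The central 31 bases occurred more than once in the genome for 3 coding exon regions (0.181%, against 1.63% of the joint list). All but the strongest dos-3 region, at 94 bp, spanned 376 bp.

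At the limits of the rule, the nearest regions on either side were all below the threshold except the rpt-2 region. Just inside the upstream limit lay regions in nyn-3 (20.6) and ndk-1 (19.3), both at 1001 bp from a start, and just outside it acer-1 (17.8, at 999 bp) and mdh-2 (17.5, at 996 bp). Just inside the downstream limit lay melo-1 (29.0) and ttll-9 (20.2), and just outside it cpr-3 (23.04, at 199 bp) and ssp-34 (20.8, at 198 bp). At the small RNA limit the rpt-2 region (74.5, at 295 bp from the snoRNA gene F29G9.19) and gpa-1 (17.9, at 318 bp) were inside, and nbs-1 (22.9, at 250 bp) and C35E7.9 (21.96, at 244 bp) outside. The 364 autosomal regions at small RNA genes, which the rule leaves out, passed the threshold in 91 cases.

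fos-1, which encodes the FOS-family partner of JUN, held 2 coding exon regions, which overlapped each other. The stronger, at V 6014591 in coding exon 5 of 7, had a joint signal of 45.2, with 27.2 in replicate 1 and 13.5 in replicate 2, and ranked 1126. The weaker, at V 6014795, had 21.8 in the joint list, 8.45 in replicate 1 and 11.9 in replicate 2. The joint list held 12 summits across fos-1 (V 6003601 to 6016087), 3 of them in promoter windows, and none passed the threshold. Both replicate lists held both of these coding exon regions.

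The 3′ end of fos-1 meets that of rpt-2 (V 6016059 to 6017669, minus strand), whose last coding exon held the region of 74.5 given above. A second rpt-2 region, at V 6016532, overlapped that one. It had 39.5 in the joint list, 10.2 in replicate 1 and 18.2 in replicate 2. jun-1 had 364 bp of eligible CDS and no coding exon region, with 2 joint summits in its span, 1 of them past the threshold. unc-119, the gene of the strain's marker allele, had 466 bp and no joint summit. Counts at jun-1 may include the transgene copy, which cannot be told apart from the endogenous gene in these lists.

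The 1661 regions lay in 1416 genes, which is 9.06% of the 15633 autosomal protein-coding genes with eligible CDS. A single region was found in 1228 genes, 2 in 144, 3 in 36, 4 in 5, 5 in 2 and 7 in 1. Regions of the same gene could overlap, so a count of regions is not a count of separate sites. Neighbouring coding exon summits lay within 500 bp in 49 cases, and the smallest gap was 199 bp. Host genes had a median of 1232 bp of eligible CDS against 778 bp over all. A longer CDS has more bases for a summit to fall in, so this difference does not set them apart. vab-10, which encodes the spectraplakin that links the cytoskeleton to epidermal attachments, had 7 regions over 22370 bp, with joint signals between 17.5 and 37.96. let-805, or myotactin, had 5 over 13353 bp, between 18.6 and 35.6, and mup-4, which encodes a transmembrane protein of the same attachments, had 4, between 17.6 and 24.5. Of the 5 genes with 4 regions, the 3 of highest summed signal are described.

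par-1, a kinase of cell polarity, had 5 regions over only 3366 bp of eligible CDS, with joint signals between 16.9 and 33.6. The strongest, which overlapped another of the 5, had 17.4 in replicate 1 and 10.5 in replicate 2. The other 4 were not found in both replicates. din-1, a nuclear receptor corepressor, had 4 regions between 17.5 and 30.9, and T04F3.1 had 4 between 20.3 and 24.8. None of the coding exon regions in these 6 genes passed the threshold. A promoter window of din-1 held a summit past it, at a joint signal of 75.7.

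A joint summit in a promoter window of the same gene was present in 553 of the 1416 genes with a coding exon region (39.1%), against 3154 of 14217 genes without one (22.2%). In classes of eligible CDS the shares were 36.3% against 19.8% under 1000 bp, 38.4% against 25.4% from 1000 to under 2000 bp, and 43.5% against 32.9% from 2000 bp up. A promoter summit past the threshold was present in 85 genes with a coding exon region (6.003%), against 416 without one (2.93%). In the same 3 classes of eligible CDS, from the shortest, these shares were 4.72% against 2.53%, 6.99% against 3.22% and 6.63% against 5.39%. Within 1000 bp of another summit past the threshold lay 26 coding exon regions (1.57%), all below it, and 6 of them lay within 400 bp. The share within 1000 bp was 3.04% of the joint list, 3.00% in introns and 3.20% in promoter windows, so it was low in these too.

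Among 22 gene lists, cuticle collagens held the most regions over the number at the mean density. Collagens of the cuticle are secreted by the epidermis in waves during each larval moult. Their CDS held 44 regions in 39 of 143 genes, a density of 419 per Mb against 104.1 over all eligible CDS, at which 10.9 would be counted. The replicate lists gave 37 regions (352 per Mb, against 143 over all CDS) for replicate 1 and 60 (572 per Mb, against 263) for replicate 2. The signals were low, with a median of 19.4, and 9 of the 44 were found in both replicates. The strongest, col-129, had 35.3 in the joint list and 36.9 in replicate 2 with no summit in replicate 1. col-42 had 33.9, with 25.5 in replicate 1 and 8.03 in replicate 2, and col-140 had 32.9, with 15.7 and 14.9.

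Collagen genes also differed in base composition. Collagen CDS had 55.7% G and C against 42.7% over all eligible CDS. Over tiles of the eligible CDS, each as long as the window within 50 bp of a summit, the density of the 964 coding exon regions whose windows lay wholly in eligible CDS was 22.8 per Mb below 30% G and C, 54.7, 72.6, 73.7, 90.03 and 89.1 in the steps of 5% from there to 55%, 126 from 55 to 60% and 208 from 60% up, the last from 27 regions. These densities leave out the other windows, so they cannot be set beside 419 per Mb. The part of base composition in the collagen count was not tested.

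The bZIP list held 7 regions in 6 of 25 genes (408 per Mb, where 1.78 would be counted at the mean density). They were the overlapping fos-1 pair and 1 each in zip-2, atf-7, zip-12, atf-2 and crtc-1. The last encodes a coactivator of the CREB factor and not a bZIP protein. atf-7, a factor of innate immunity downstream of p38, had 25.3 in the joint list, 18.5 in replicate 1 and 8.66 in replicate 2. The JNK and p38 list held 9 regions in 5 of 15 genes (387 per Mb, where 2.42 would be counted). The strongest were in mlk-1, a kinase kinase kinase of the JNK branch (27.5, with 12.9 in replicate 1 and 13.5 in replicate 2), in dlk-1, the corresponding kinase of axon regeneration (25.05, with 16.6 in replicate 1 only), and in vhp-1, the phosphatase that opposes them (23.9, with 11.6 and 12.2). nsy-1, a kinase kinase kinase of p38, held 3 regions between 17.1 and 18.7, and pmk-2 held 1.

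Both lists are short, so the counts are small, and no region of the JNK and p38 list passed the threshold. The replicate lists gave 9 and 11 regions in the bZIP list for replicates 1 and 2 (525 and 641 per Mb). In the JNK and p38 list they gave 10 and 11 (431 and 474 per Mb). Over all eligible CDS the replicate lists held 143 and 263 per Mb, against 104.1 in the joint list. The CDS of the bZIP list had 45.7% G and C, and that of the JNK and p38 list 42.6%.

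The list of metabolic enzymes covered only those of abundant transcripts, and it held 20 regions where 8.09 would be counted. It was led by pck-2, of gluconeogenesis (32.1, with 19.9 in replicate 1 only), the fatty acid desaturase fat-6 (28.4, with 21.01 in replicate 2 only) and citrate synthase cts-1 (25.2, with 19.02 in replicate 2 only). Heat shock proteins and chaperones held 12 where 5.37 would be counted, with hsp-90 at 29.1, the J-domain gene dnj-18 at 26.6 and the disulfide isomerase gene pdi-3 at 26.4, each seen in replicate 1 only. Ribosomal protein genes held 2 where 0.980 would be counted, in rpl-3 (35.1, with 25.3 in replicate 1 and 15.2 in replicate 2) and rps-27 (20.97, with 8.72 and 9.30). Translation factors held 3 where 2.99 would be counted, of which 2 were in the elongation factor gene eef-2 and 1 in eftu-2, an orthologue of a splicing GTPase. Histones and major sperm proteins held none, where 0.356 and 0.335 would be counted.

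Vitellogenins and lipid transport held 7 where 4.83 would be counted, the strongest in the yolk protein gene vit-6 (31.8, with 14.9 in replicate 1 and 18.2 in replicate 2). Muscle structure held 16 where 23.8 would be counted, and basement membrane and extracellular matrix 10 where 12.96 would be counted, both led by the integrin gene pat-3 (26.2, with 17.3 and 10.7 in replicates 1 and 2). The fibrillin-related gene fbn-1 had 24.6. Cytoskeleton and motors held 23 where 19.3 would be counted, led by the ankyrin gene unc-44 at 46.05, with 23.4 in replicate 1 and 21.9 in replicate 2.

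Chromatin and transcription machinery held 26 where 20.9 would be counted. Its strongest were the Mediator gene mdt-27 (36.6, with 22.2 in replicate 1 and 11.7 in replicate 2), the histone deacetylase gene hda-2 (33.6, with 13.9 and 20.4) and the SWI/SNF subunit gene let-526 (32.3, with 15.2 and 18.6). Nuclear hormone receptors held 31 where 23.2 would be counted, led by nhr-55 (34.9, with 16.3 in replicate 1 and 18.9 in replicate 2). Splicing held 3 where 4.71 would be counted, led by hrpu-1 at 31.0, and endocytosis held 8 where 8.65 would be counted, led by the adaptor gene apb-3 at 32.9. Neuropeptides and insulins held 3 where 1.75 would be counted, the strongest in flp-16 at 22.4.

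Several large gene families held fewer regions than their length would give at the mean density. Chemoreceptors, most of them expressed in few sensory neurons, held 44 regions in 43 of 1263 genes, where 91.9 would be counted, and their CDS had 37.6% G and C. The strongest were str-208 (33.5, with 22.4 in replicate 1 and 14.2 in replicate 2), str-83 (30.2, with 23.1 in replicate 2 only) and srbc-24 (30.2, with 13.4 and 12.1). F-box, MATH and BTB genes held 15 where 29.2 would be counted, led by fbxc-52 at 28.7. C-type lectins and immunity genes held 9 where 21.2 would be counted, led by the lysozyme gene lys-1 at 32.4. Germline genes held 4 where 10.3 would be counted, led by gld-4 at 21.4. The CDS of these 2 lists had 44.3% and 45.3% G and C, above the 42.7% over all eligible CDS. That of F-box, MATH and BTB genes had 38.8%. The part of base composition in these counts was not tested. No region of any of the 22 lists passed the threshold.

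**Figure D5:**
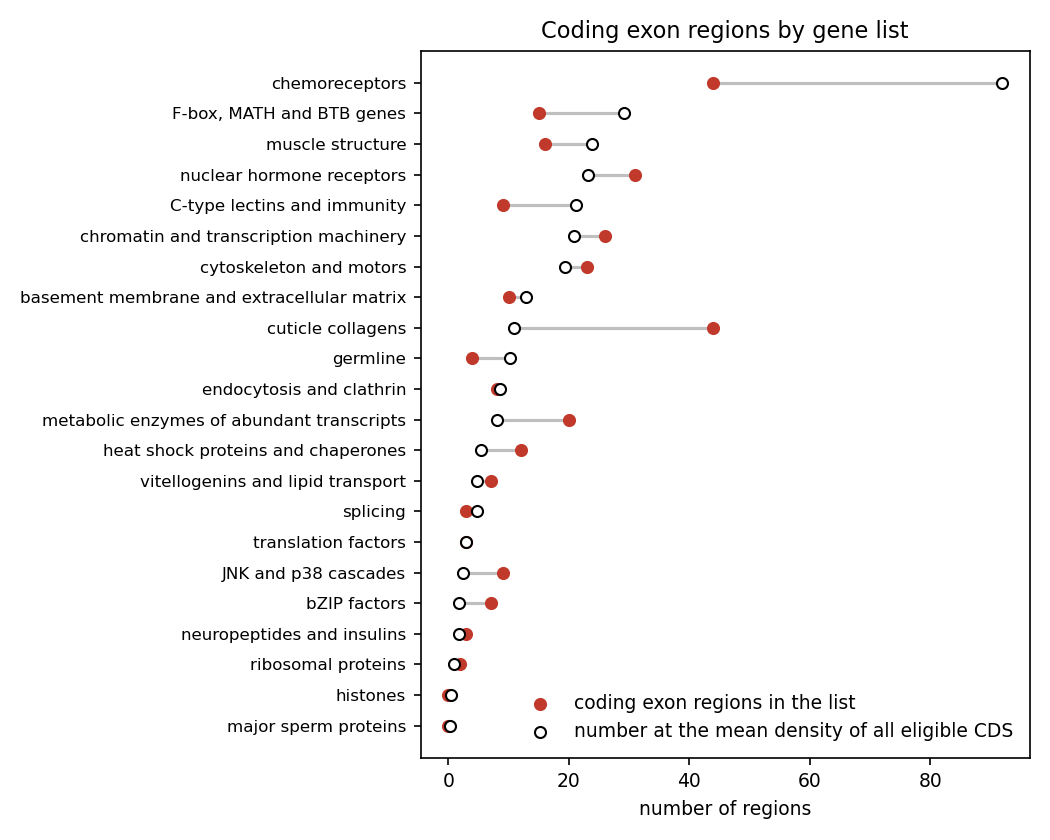
Number of coding exon regions in each of 22 gene lists (filled red points), and the number that the eligible CDS of the list would hold at the mean density of all eligible CDS (open points), on the x axis. Cuticle collagens have 44 against 10.9 and chemoreceptors 44 against 91.9. Metabolic enzymes of abundant transcripts have 20 against 8.09, and F-box, MATH and BTB genes 15 against 29.2.

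The G and C content of coding exon regions was nearer to that of coding tiles than to that of the joint list. The rule places every summit in CDS, so this nearness follows in part from it. Within 50 bp of the summit, the median G and C content was 41.6%, against 42.6% in 121391 tiles of the eligible CDS, 38.6% in the joint list, 39.6% in promoter windows and 35.6% in introns. Tiles lie wholly in eligible CDS, as did 964 of the 1661 windows, and for these the median was 43.6%. Across coding exon regions the rank correlation of joint signal with G and C content was 0.045, and across the joint list 0.249, as descriptions over 1661 and 13085 regions.

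The AP-1 site TGACTCA was present in 17 coding exon regions (1.02%, interval 0.597 to 1.63), against 0.919% of tiles and 1.88% of the joint list. Among the 15 past the threshold it was found in arrd-6 alone, as printed above. The cyclic AMP response element TGACGTCA was present in 9 (0.542%, interval 0.248 to 1.03), against 0.677% of tiles and 0.795% of the joint list. For both words the interval of the coding exon share includes the share of tiles.

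The GA repeat word GAGAGA was present in 110 coding exon regions (6.62%, interval 5.47 to 7.93), against 5.74% of tiles and 12.4% of the joint list, with 14.7% in promoter windows, 16.2% in intergenic sequence and 10.6% in introns. CCAAT was present in 26.6%, against 26.8% of tiles and 19.8% of the joint list, and GAAGAA in 18.6%, against 19.5% and 13.95%. CAGCAG was present in 7.47%, against 6.45% of tiles and 4.61% of the joint list, and GATAAG in 4.76%, against 4.66% and 6.27%. For the 964 windows wholly in eligible CDS the share with CAGCAG was 9.02%. The E-box CACGTG was present in 3.61%, and in 4.77% of the windows wholly in eligible CDS, against 2.88% of tiles and 2.76% of the joint list. GGGCGG was present in 1.57%, against 1.41% of tiles and 2.90% of the joint list. Runs of 7 A were present in 3.19%, against 1.38% of tiles and 16.0% of the joint list, and in 0.622% of the windows wholly inside eligible CDS. Each word was counted on both strands, and only TGACTCA and GAGAGA, in arrd-6, lay side by side in the printed sequences. For each of the 10 words, the share in coding exon regions was thus nearer to that of coding tiles than to that of the joint list. With every summit in CDS by the rule, this too follows in part from it. For the E-box the shares of tiles and of the joint list were themselves close. Its share in windows wholly in eligible CDS, 4.77%, was above both, as was that of CAGCAG, 9.02%.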

How the data were processed

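Peak lists of an eGFP::jun-1 ChIP-seq of L4 larvae, 2 replicates in 1 group, were analysed as deposited on ce11. Per the deposited descriptions, the authors called regions from the alignments together with a control, which was not used here. No label or header names the aligner or the caller. The deposited signal (column 7) ranked regions within a list, and the deposited −log10 q-value (column 9) gave the q threshold of 0.05. Lists on ce10 were not used. Separate biosamples are named, and separate cultures are not stated.

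Positions came from the WBcel235 assembly (ce11) and Ensembl release 115. Eligible CDS were the autosomal coding bases that the rule allows. Replicate summits within 100 bp were matched, each alternative replicate list passed the same rule, and motifs were searched within 50 bp of summits. The 95% intervals are exact (Clopper-Pearson) and cover only the counting error over regions. Named were all regions past the threshold, the 15 strongest, the 6 genes with most regions (ties broken by summed signal), up to 3 regions per gene list, those nearest the limits, and jun-1, fos-1 and unc-119. Genes T28H10.1, nsy-1, pmk-2, zip-12, atf-2 and crtc-1 fall outside that rule and were chosen after their values were seen. The members and lists were chosen with earlier results of these data known. The rule's code was tested on 1500 simulated positions, with 0 disagreements. Software was scipy 1.17.1, numpy 2.4.6, pandas 2.3.3 and matplotlib 3.10.9 under Python 3.11.15.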

Additional observations from a re-analysis of the deposited data

How the results depend on the processing

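Using 1 replicate list alone moved the number of coding exon regions to between 2275 (replicate 1) and 4201 (replicate 2), against 1661 in the joint list. The share past the threshold was then 0.286% to 0.527%, the share with a summit in both replicate lists 12.8% to 22.3%, the share with GAGAGA 5.64% to 6.15%, the share in the last of 3 equal parts of the CDS 39.8% to 41.9%, and the share in cuticle collagens 1.43% to 1.63%, against 2.65% in the joint list. For the whole replicate lists, of 19396 and 23742 regions, the shares past the threshold and in both lists were not computed. The lower values of these 2 shares with 1 list alone thus cannot be read as particular to coding exon regions. Keeping only the stronger 50% of the regions past the threshold left 3 coding exon regions, or 0.181%. The same cut also removes about 50% of the 899 joint regions past the threshold, which made up 6.87% of the joint list. The share in both replicates was 18.7% with summits within 50 bp, 43.0% within 200 bp and 51.2% with any overlap of 1 bp, against 27.1%, 53.2% and 60.6% of the joint list. GAGAGA was present in 11.7% of windows reaching 100 bp to each side and 3.43% of windows of 51 bp. Promoter windows from 500 or 2000 bp upstream gave 1792 and 1300 regions, and these, no small RNA filter, CDS shared by every transcript, and at least 50% of the region in CDS kept every share recomputed under them, and the median signal under the 2 promoter windows, within the 95% interval of the value reported. The alternatives for signal, position and gene lists were chosen after seeing the data. No paired analysis was possible because there is 1 group. Read depth is unknown, so no detection limit can be set.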
